A study of Homo sapiens with 6 samples.

Results

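The 9 genes described here encode the machinery by which a cell displays fragments of its own proteins on class I molecules of the major histocompatibility complex (MHC). They are the heavy chains HLA-B, HLA-C and HLA-E, the light chain B2M, the peptide transporter subunits TAP1 and TAP2, the loading chaperone TAPBP, and the immunoproteasome subunits PSMB8 and PSMB9. They were chosen by symbol from the deposited count table, and all 9 were found among its 26334 genes. RNA-seq was done on poly-A mRNA of MCF10DCIS.com (hereafter MCF10DCIS), a human breast cancer cell line, in 3 shLuc and 3 shWDR5 libraries. The shLuc cells carried the vector pRSI-U6-shLuc-UbiC-TagRFP-2A-Puro, a hairpin against luciferase that serves as control. The shWDR5 cells carried pRSI-U6-shWDR5-UbiC-TagRFP-2A-Puro, and the study describes its silenced MCF10DCIS cells as transduced with a pool of WDR5 shRNAs. Both groups were grown in DMEM/F12 with 5% horse serum and selected in puromycin at 3 µg/ml, and the labels name no interferon or other stimulus in either group. The design thus has a single cell line, and the labels do not say whether the libraries of a group came from separate cultures, so the p-values measure the spread between these libraries, which may be technical. The comparison asks how the RNA of these genes differed after silencing of WDR5, a shared WD40-repeat subunit of the complexes that methylate histone H3 at lysine K4.

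Class I presentation begins when proteasomes cut cytosolic proteins into peptides. The constitutive catalytic subunits can be replaced by PSMB8, PSMB9 and PSMB10, which interferon signalling induces and which change the cut ends of the peptides. The TAP1 and TAP2 heterodimer pumps the peptides into the endoplasmic reticulum, where tapasin, the product of TAPBP, holds empty class I molecules at the transporter, and only a heavy chain with B2M and a bound peptide is displayed stably at the surface. CD8 T cells read HLA-B and HLA-C, and natural killer cells read HLA-C and HLA-E. Many of these genes are known to share upstream elements bound by interferon regulatory factors, NF-kB, and the complex of RFX, CREB and NF-Y proteins that recruits the coactivator NLRC5.

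The upstream sequences of 5 members are printed because these genes carry the main contrasts: HLA-B and HLA-C rose by similar amounts, TAPBP rose most, and TAP1 and PSMB9 are transcribed away from each other and moved in opposite directions. They are the 250 bases before the RefSeq start site (build GRCh38.p14), 5′ to 3′ on the strand of the gene. Capitals mark any of 4 motifs, searched on both strands: the interferon-stimulated response element (ISRE) as GAAANNGAA, the NF-kB site as GGNNTTNCC, the CCAAT box as CCAAT, and the CRE-like X2 core as TGACG. The first and second are shortened to 9 letters, and with 1 letter more at one end they match fewer windows. Adjacent or overlapping matches run together in the capitals.
HLA-B, chr6:31357180-31357429, minus strand: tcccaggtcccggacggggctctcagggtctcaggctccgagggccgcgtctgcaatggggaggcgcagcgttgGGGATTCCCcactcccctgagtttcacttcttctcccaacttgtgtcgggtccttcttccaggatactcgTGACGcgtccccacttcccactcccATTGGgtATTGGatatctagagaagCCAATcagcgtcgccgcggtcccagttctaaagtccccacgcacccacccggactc
HLA-C, chr6:31272093-31272342, minus strand: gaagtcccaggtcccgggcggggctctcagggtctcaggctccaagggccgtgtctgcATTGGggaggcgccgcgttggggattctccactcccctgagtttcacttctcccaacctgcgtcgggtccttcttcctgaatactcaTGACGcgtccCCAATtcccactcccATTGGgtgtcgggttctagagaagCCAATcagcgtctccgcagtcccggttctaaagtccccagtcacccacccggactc
TAPBP, chr6:33314079-33314328, minus strand: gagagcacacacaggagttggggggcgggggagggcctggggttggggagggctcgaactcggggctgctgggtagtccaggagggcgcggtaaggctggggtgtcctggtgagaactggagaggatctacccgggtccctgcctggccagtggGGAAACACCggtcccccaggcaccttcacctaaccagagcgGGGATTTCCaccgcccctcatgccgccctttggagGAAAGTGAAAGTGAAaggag
TAP1, chr6:32853705-32853954, minus strand: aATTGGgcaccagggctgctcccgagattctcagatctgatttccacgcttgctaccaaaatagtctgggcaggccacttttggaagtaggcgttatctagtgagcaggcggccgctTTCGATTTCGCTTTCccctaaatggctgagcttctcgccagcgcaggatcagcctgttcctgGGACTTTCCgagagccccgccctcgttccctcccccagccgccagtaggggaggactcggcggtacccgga
PSMB9, chr6:32853942-32854191, plus strand: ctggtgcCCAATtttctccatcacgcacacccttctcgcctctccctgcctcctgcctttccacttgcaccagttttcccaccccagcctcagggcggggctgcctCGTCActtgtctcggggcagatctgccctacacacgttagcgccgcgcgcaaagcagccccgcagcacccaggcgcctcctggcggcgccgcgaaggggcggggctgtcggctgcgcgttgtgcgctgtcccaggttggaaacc

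RefSeq windows of 300 bases (250 before and 50 after the start site) were found for 8 of the 9 members, 10 windows in all, with HLA-E unmatched. The HLA-B and HLA-C windows were 89.7% identical over 300 bases. Both held a TGACG, HLA-B had 3 CCAAT matches and HLA-C had 4, and the NF-kB letters had 1 match in HLA-B and 0 in HLA-C. Neither window matched the ISRE letters as spelled here, which does not show that such an element is absent. TAPBP held 2 overlapping ISRE matches, starting 20 and 14 bases before the start site, and 2 NF-kB matches, starting 96 and 55 bases before it. The TAP1 window printed here likewise held 2 overlapping ISRE matches, with 1 NF-kB match, while a TAP1 window at an alternative start held 1 NF-kB match and no ISRE. The B2M window held 2 ISRE matches and the TAP2 window 1, and of the 2 PSMB8 windows 1 held an ISRE, across its start site. The PSMB9 window held 1 CCAAT and 1 TGACG and matched neither the ISRE nor the NF-kB letters. The TAP1 and PSMB9 start sites lay 488 bases apart and their windows shared 13 bases. The ISRE and NF-kB matches of the printed TAP1 window lie between these start sites. By these RefSeq starts they are thus also upstream of PSMB9, beyond the bases of its window. The hg19 annotation used for counting leaves only 189 bases between the 2 genes, and the matches were not placed on it. Among all 35116 RefSeq windows, the ISRE letters occurred in 8.11%, the NF-kB letters in 17.1%, CCAAT in 34.6% and TGACG in 24.6%. With 1 letter more, the ISRE occurred in 3.57% and the NF-kB site in 5.68% of all windows, the ISRE matches of the members stayed, and of their NF-kB matches 1 in TAPBP and those of the alternative TAP1 window and of PSMB8 were lost. These are matches of letters only, and no binding was measured in these files.

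The libraries held 38218108 to 57640167 counted reads, and 16117 genes passed the filter on low counts. Levels are given as reads per 1000000 counted reads (RPM), scaled by trimmed-mean normalisation, and a gene is called higher or lower in shWDR5 when its adjusted p (edgeR quasi-likelihood test, Benjamini-Hochberg over all genes tested) is under 0.05. Of the epithelial markers, KRT5, KRT14, KRT17 and TP63 were called higher, EPCAM and CDH1 lower, and KRT8 and KRT18 were not called. The summed level of the 8 was 7115 to 7577 RPM in shLuc and 9265 to 10360 RPM in shWDR5. Of 10 immune cell markers 6 could be tested, of which 2 (ITGAM and NCAM1) were higher and 1 (CD14) lower. The immune marker PTPRC stayed at or under 0.151 RPM in every library and CD3E had no read. CD3G, CD68 and LYZ were tested and not called, with means of 0.370, 11.9 and 2.78 RPM in shLuc. In shWDR5 the means of these genes were 0.406, 11.1 and 2.59 RPM. The immune markers summed to 52.2 to 54.5 RPM in shLuc and 69.0 to 82.0 RPM in shWDR5, and without NCAM1, whose mean went from 36.0 to 60.0 RPM, to 15.8 to 18.2 RPM and 16.3 to 18.9 RPM. Of 7 endothelial and fibroblast markers 4 could be tested, of which 2 (PECAM1 and COL1A1) were lower. Their sum was 29.6 to 31.3 RPM in shLuc and 19.8 to 22.5 RPM in shWDR5, with LUM at 0 in every library. The part of the epithelial, endothelial and fibroblast markers in the results below was not tested. In bulk RNA, fewer cells of a type and less RNA per cell cannot be told apart.

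WDR5 itself stood at 52.6, 48.5 and 51.3 RPM in shLuc and at 23.4, 24.4 and 20.8 RPM in shWDR5. All shWDR5 libraries were below all shLuc libraries, and the level in shWDR5 was 0.450 times that in shLuc (log2 fold change -1.15 ± 0.08 SE, adjusted p = 8.67e-07 by edgeR). Here and below, the SE is that of the difference between group means of log2 RPM (n = 3 per group). The edgeR p rests on a variance estimated in part across genes, so it does not follow from the SE of a single gene.

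After WDR5 silencing the class I genes split. HLA-B, HLA-C, TAP1 and TAPBP were higher, TAP2, PSMB8 and PSMB9 were lower, and HLA-E and B2M were not called. Thus 7 of the 9 members were called, against 56.5% of all genes tested. The 4 higher members compare with 26.6% of all genes called higher and the 3 lower members with 29.9% called lower, so with so many genes called the number of calls does not set the class I genes apart. The median log2 fold change of the 9 was 0.08, beside -0.01 for all genes tested. The 9 genes together took 0.140 to 0.149% of counted reads in shLuc and 0.147 to 0.152% in shWDR5. The groups overlapped for B2M alone. How many of all genes tested had groups apart was not counted, so nothing particular to these 9 was read from this separation.

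**Figure D1:**
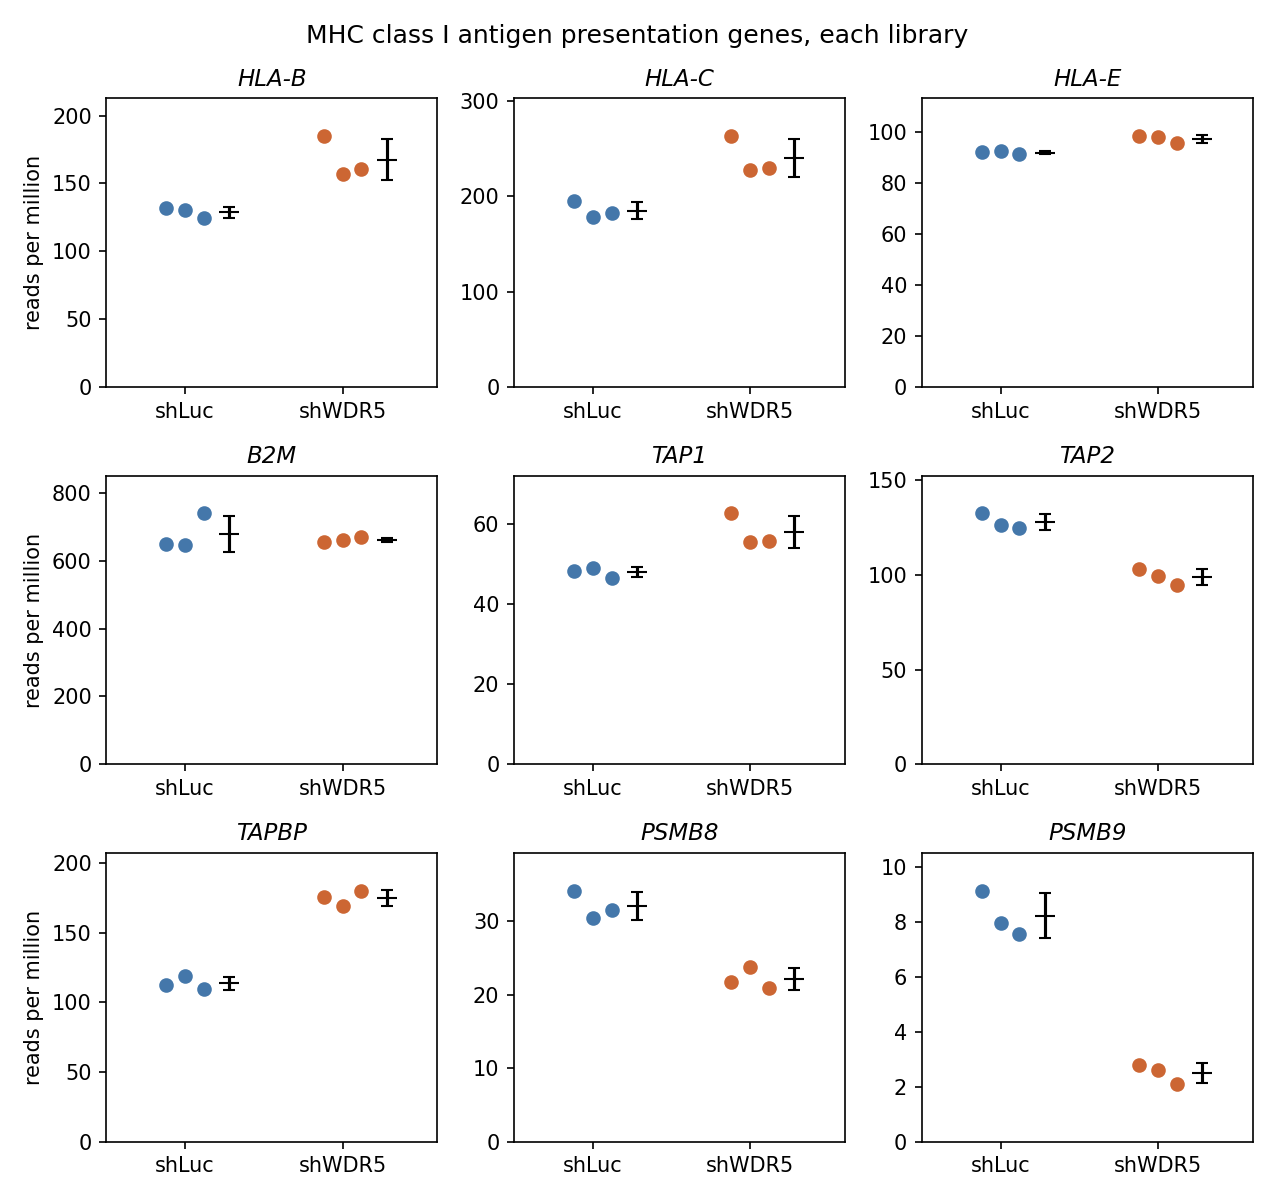
Level of each of the 9 members in RPM (vertical axes, each starting at 0) in the 3 shLuc (blue) and 3 shWDR5 (orange) libraries, with the mean and SD beside them in black. The groups are apart in every panel except B2M. As a ratio, though not in RPM, the difference is largest for PSMB9, at 7.56 to 9.13 in shLuc and 2.12 to 2.81 in shWDR5.

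The classical heavy chains HLA-B and HLA-C rose together. HLA-B (hg19 chr6:31321649-31324989, minus strand) was at 131.6, 130.6 and 124.2 RPM in shLuc and at 185.2, 156.9 and 160.8 RPM in shWDR5. Every shWDR5 library was above every shLuc library, with shWDR5 replicate 1 the highest. The increase was 1.30-fold (log2 fold change 0.38 ± 0.08 SE, adjusted p = 0.000888 by edgeR). HLA-C (hg19 chr6:31236526-31239913, minus strand) was at 194.7, 178.3 and 182.1 RPM in shLuc and at 263.5, 227.9 and 229.9 RPM in shWDR5. The groups were again apart, replicate 1 of shWDR5 was again the highest, and the increase was also 1.30-fold (log2 fold change 0.38 ± 0.08 SE, adjusted p = 0.000818 by edgeR). The upstream sequences of this pair, printed above, are similar, and long stretches of their transcripts are nearly identical. Class I heavy chains, HLA-B and HLA-C among them, can therefore share reads, the handling of reads with several matches is not given in the sources used here, and the alleles of the line can differ from the reference, so the separate levels of these chains are uncertain.

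HLA-E (hg19 chr6:30457183-30461982, plus strand), a less variable heavy chain that presents signal peptides of other class I chains, was at 92.1, 92.5 and 91.6 RPM in shLuc and at 98.7, 98.0 and 95.7 RPM in shWDR5. The groups did not overlap, but the difference was small and missed the threshold (log2 fold change 0.08 ± 0.01 SE, adjusted p = 0.190 by edgeR). B2M (hg19 chr15:45003685-45010357, plus strand), the light chain shared by all of these molecules, lies outside the MHC. It was at 648.9, 645.8 and 739.6 RPM in shLuc and at 655.5, 660.6 and 668.4 RPM in shWDR5. The shLuc libraries spanned the shWDR5 libraries, and B2M was not called (log2 fold change -0.04 ± 0.06 SE, adjusted p = 0.646 by edgeR). Without shLuc replicate 3, which had the highest level, its log2 fold change was 0.03, still not called. Per kilobase of transcript, HLA-B reads were 12.7%, 12.7% and 10.5% of B2M reads in shLuc and 17.7%, 14.9% and 15.1% in shWDR5. HLA-C reads per kilobase were 18.7%, 17.2% and 15.3% of those of B2M in shLuc and 25.0%, 21.5% and 21.4% in shWDR5.

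The transporter subunits moved apart. TAP1 (hg19 chr6:32812986-32821748, minus strand) was at 48.2, 48.9 and 46.5 RPM in shLuc and at 62.6, 55.5 and 55.8 RPM in shWDR5. No library of one group fell within the other, and TAP1 was 1.21-fold higher (log2 fold change 0.28 ± 0.06 SE, adjusted p = 0.00433 by edgeR). TAP2 (hg19 chr6:32789610-32806600, minus strand) was at 132.7, 126.4 and 124.6 RPM in shLuc and at 103.2, 99.2 and 94.5 RPM in shWDR5. Each shWDR5 library was below each shLuc library, and the level in shWDR5 was 0.774 times that in shLuc (log2 fold change -0.37 ± 0.05 SE, adjusted p = 0.000279 by edgeR). Reads per kilobase of TAP1 were 0.719, 0.765 and 0.738 times those of TAP2 in shLuc and 1.20, 1.10 and 1.17 times in shWDR5, so the subunit with the lower density of reads changed from TAP1 to TAP2. These ratios are a description, and the difference between the 2 fold changes was not tested. The change of order depends on the summed exon lengths used (3145 bases for TAP1, 6218 for TAP2). In RPM, TAP2 stayed above TAP1 in every library. The antisense RNA gene PSMB8-AS1, with 19 to 36 reads a library, shares 456 exon bases with TAP1 and 226 with PSMB8. Its log2 fold change was -0.68 (adjusted p = 0.0266 by edgeR). No source used here says that the counting used strand, so reads of the overlapping stretches cannot be assigned to one gene.

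TAPBP showed the largest rise of the 9. This chaperone gene (hg19 chr6:33267472-33282164, minus strand) was at 112.6, 118.8 and 109.2 RPM in shLuc and at 175.7, 168.9 and 180.0 RPM in shWDR5. The groups were far apart relative to their spread, and the increase was 1.54-fold (log2 fold change 0.62 ± 0.04 SE, adjusted p = 6.95e-06 by edgeR).

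The immunoproteasome subunits among the 9 members, PSMB8 and PSMB9, fell, whereas PSMB10, described below, was not called. PSMB8 (hg19 chr6:32808494-32812712, minus strand), which supplies chymotrypsin-like activity, was at 34.2, 30.4 and 31.6 RPM in shLuc and at 21.8, 23.8 and 20.9 RPM in shWDR5. The shWDR5 libraries were all below the shLuc libraries, and the level in shLuc was 1.45 times that in shWDR5 (log2 fold change -0.53 ± 0.07 SE, adjusted p = 0.000154 by edgeR). PSMB9 (hg19 chr6:32821938-32827628, plus strand), which replaces the caspase-like constitutive subunit PSMB6, was at 9.13, 7.97 and 7.56 RPM in shLuc and at 2.81, 2.60 and 2.12 RPM in shWDR5. These levels rest on 451, 309 and 305 reads in shLuc and 130, 148 and 96 reads in shWDR5, the fewest of any member. The groups were far apart, and PSMB9 was 3.27-fold lower in shWDR5 (log2 fold change -1.71 ± 0.14 SE, adjusted p = 1.57e-06 by edgeR), the largest change among the 9 members.

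The study counted a gene as changed only with an adjusted p under 0.05, a log2 fold change of at least 0.6 in size and a level over 0.5 RPKM (RPM per kilobase of summed exons). By these thresholds 18.4% of all genes tested changed, 7.90% higher and 10.5% lower. Among the members TAPBP was higher, PSMB9 was lower and the other 7 did not pass. TAPBP lay close to the line: its log2 fold change was 0.57 when libraries were scaled by total counts alone and 0.59 without shLuc replicate 3, and in both cases it stayed called by adjusted p but fell short of the fold threshold.

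**Figure D2:**
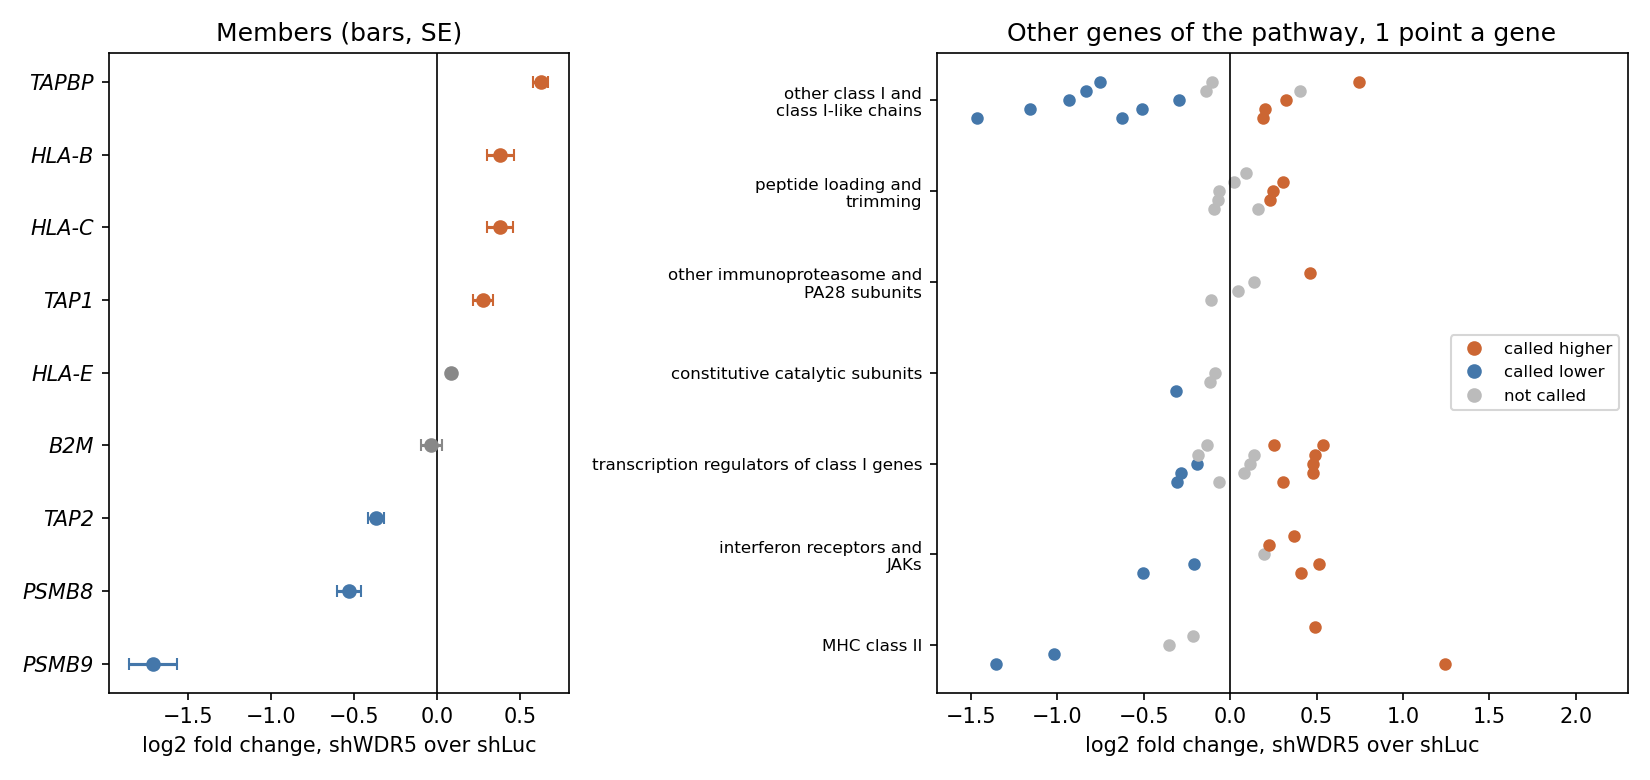
Log2 fold change of shWDR5 over shLuc (horizontal axes). Left, the 9 members with SE bars, from PSMB9 at -1.71 to TAPBP at 0.62, with HLA-E and B2M not called (grey). Right, the 59 other genes of the pathway that could be tested, 1 point a gene (vertical offsets only separate points), coloured by whether the gene was called higher (orange), lower (blue) or not called (grey). Genes called in both directions appear in 4 of the 7 lists.

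Compared per length, B2M had the highest level of the 9 members and PSMB9 the lowest in both groups. In shLuc the mean RPKM (± SD, n = 3) fell from 687 ± 54.0 for B2M through 117 ± 5.41 for HLA-C, 81.9 ± 2.56 for HLA-B, 34.6 ± 0.167 for HLA-E, 27.8 ± 1.19 for TAPBP, 20.6 ± 0.682 for TAP2, 18.1 ± 1.09 for PSMB8 and 15.2 ± 0.398 for TAP1 to 7.84 ± 0.776 for PSMB9. Neighbours in this order did not overlap in their 3 libraries. In shWDR5 TAPBP, at 42.9 ± 1.37 RPKM, stood above HLA-E at 36.6 ± 0.602. TAP1, at 18.4 ± 1.29 RPKM, stood above TAP2 at 15.9 ± 0.704 and PSMB8 at 12.5 ± 0.831. B2M (670 ± 6.58), HLA-C (152 ± 12.6) and HLA-B (107 ± 9.76) kept the first places in RPKM and PSMB9 (2.39 ± 0.338) the last, again without overlap between neighbours. In shLuc, the level of B2M was at or above that of 99.5% of genes tested and that of PSMB9 at or above that of 58.1%.

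The immunoproteasome subunits were also set against the constitutive subunits they replace, as reads per kilobase within each library, a ratio that does not depend on library scaling. PSMB8 was 22.3%, 21.6% and 21.5% of PSMB5 in shLuc and 15.2%, 16.9% and 16.0% in shWDR5 (means 21.8% ± 0.462 and 16.0% ± 0.888, SD, n = 3 each). PSMB9 was 6.81%, 6.50% and 6.35% of PSMB6 in shLuc and 2.64%, 2.64% and 2.17% in shWDR5 (means 6.55% ± 0.236 and 2.48% ± 0.271). PSMB10, the remaining inducible subunit, was 20.1%, 20.2% and 19.2% of PSMB7 in shLuc and 24.5%, 23.8% and 22.9% in shWDR5 (means 19.8% ± 0.532 and 23.7% ± 0.826). The first of these ratios differed by -0.44 on the log2 scale, the second by -1.41 and that of PSMB10 by 0.26. None of the 3 ratios overlapped between groups, and each gave p = 0.1 in the two-sided exact permutation test (adjusted over the 3 ratios, 0.1), which is the smallest p that 3 libraries against 3 can give. By itself PSMB10 was not called (log2 fold change 0.14 ± 0.06 SE, adjusted p = 0.118 by edgeR), nor were PSMB5 at -0.09 and PSMB7 at -0.12 (called lower with total counts alone, adjusted p = 0.0289), whereas PSMB6 was lower, at -0.31 (adjusted p = 0.00183 by edgeR). For each PSMB9 read there were 3.74, 3.81 and 4.18 reads of PSMB8 in shLuc and 7.77, 9.14 and 9.88 in shWDR5.

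**Figure D3:**
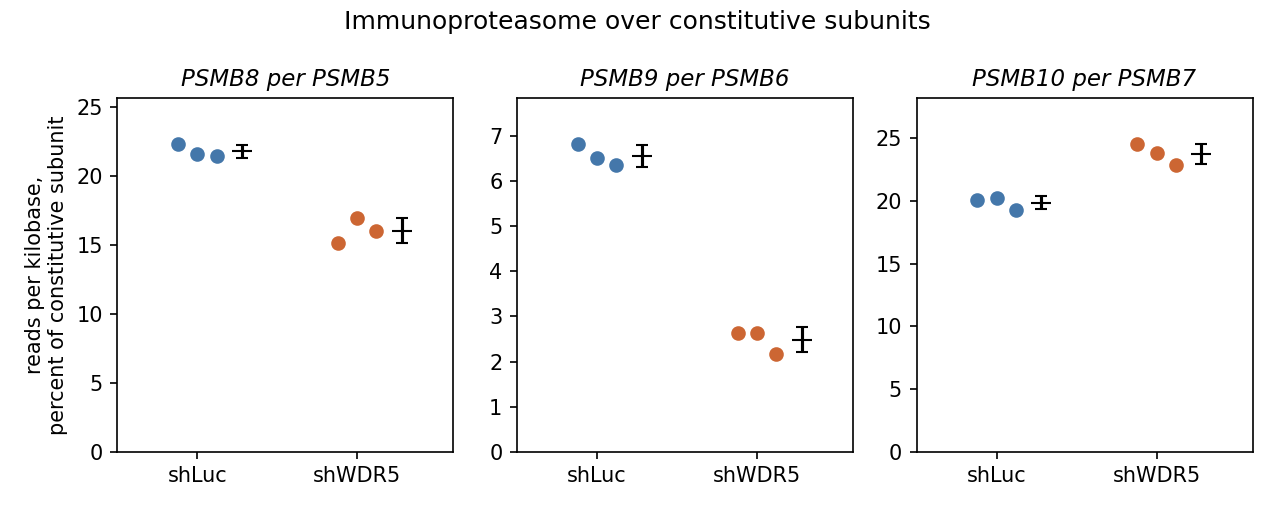
Reads per kilobase of each inducible proteasome subunit as percent of its constitutive counterpart (vertical axes from 0) in the 3 shLuc (blue) and 3 shWDR5 (orange) libraries, with mean and SD in black. PSMB8 per PSMB5 and PSMB9 per PSMB6 are lower in every shWDR5 library, and PSMB10 per PSMB7 is higher in every one, at 22.9 to 24.5% against 19.2 to 20.2%.

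TAP2, PSMB8, TAP1 and PSMB9 lie side by side in 38.0 kb of the class II part of the MHC, and their neighbours on both sides were measured. From TAP2 onwards the log2 fold changes ran -0.37, -0.53, 0.28 and -1.71, so TAP1 rose between lower genes on both sides. Only 273 bases separate PSMB8 from TAP1 and 189 bases separate TAP1 from PSMB9 in the hg19 annotation. For each PSMB9 read there were 5.28, 6.14 and 6.15 TAP1 reads in shLuc and 22.3, 21.3 and 26.3 in shWDR5. The next tested gene beyond TAP2, HLA-DOB, was lower, the next beyond PSMB9, LOC100294145, was not called (log2 fold change -0.04). Further on HLA-DMA was lower (-1.02) and BRD2 beyond it was higher (0.28). Over the 3.59 Mb from HLA-F to TAPBP (hg19 chr6:29691117-33282164), 125 genes other than members could be tested, of which 41 were higher and 35 lower. These 60.8% called are close to the 56.5% over all genes tested.

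**Figure D4:**
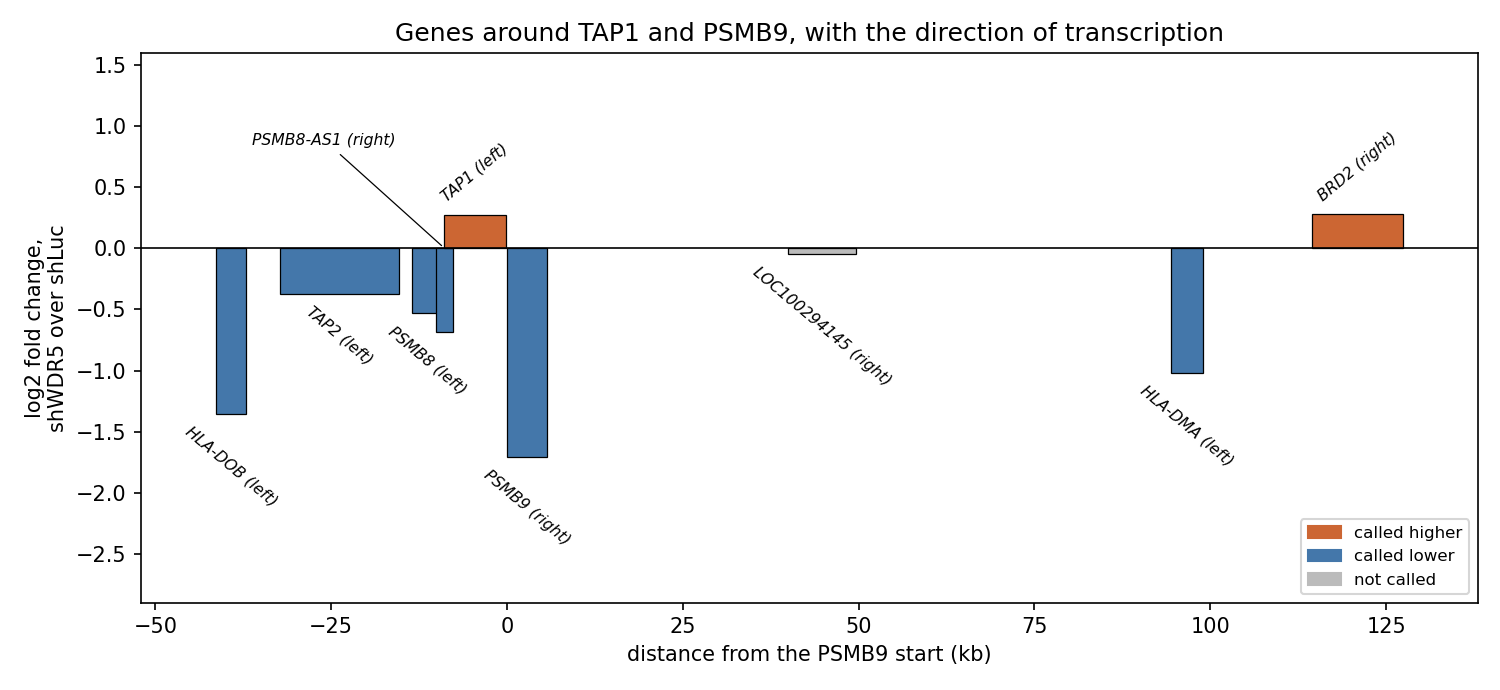
Log2 fold change of shWDR5 over shLuc (vertical axis) of the tested genes around TAP1 and PSMB9, drawn as bars from gene start to gene end by distance from the PSMB9 start in kb (horizontal axis). The direction of transcription is written in brackets, and colour gives higher (orange), lower (blue) or not called (grey). TAP1, at 0.28, stands between PSMB8 at -0.53 and PSMB9 at -1.71.

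Of the other genes of class I presentation and its control, 66 were listed by textbook role and 59 could be tested. Of these 20 were higher, 16 lower and 23 not called, with a median log2 fold change of 0.02. Over all genes tested 26.6% were higher and 29.9% lower, 56.5% together, and the calls in each of the lists below stand beside that background, from which nothing particular to a list was read. Under the study's thresholds 2 were higher, 7 lower and 50 not called.

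Among the other class I and class I-like chains, 15 of 16 could be tested, of which 4 were higher and 8 lower (median log2 fold change -0.30). MICA, a stress ligand of the NKG2D receptor of natural killer cells, was higher, at 0.32 on the log2 scale, and its relative MICB was lower. MICB was at 20.6, 21.0 and 21.7 RPM in shLuc and at 7.34, 8.46 and 7.04 RPM in shWDR5 (log2 fold change -1.47 ± 0.08 SE, adjusted p = 4.47e-07 by edgeR). Another 4 NKG2D ligands were lower, with log2 fold changes of -0.30 for ULBP2, -0.93 for RAET1E, -1.16 for RAET1G and -0.63 for RAET1L, while ULBP1 (-0.11) and ULBP3 (-0.14) were not called. The neonatal Fc receptor chain FCGRT (-0.75), the iron regulator HFE (-0.51) and the protein C receptor PROCR (-0.83) were lower too, and HLA-F (0.20) and MR1 (0.19), which presents vitamin metabolites, were among the higher genes. The calls of HLA-F, MR1 and RAET1L were lost when shWDR5 replicate 2 was left out (adjusted p of 0.0898, 0.0669 and 0.0779 by edgeR). Of the 11 alternatives, 7 removed the call of HLA-F and 3 each those of MR1 and RAET1L. HLA-G was not called and CD1D was too low to test.

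The loading and trimming list had 3 higher and no lower genes of 9 (median log2 fold change 0.09). The higher genes were the chaperone CALR (0.23), the export receptor BCAP31 (0.31) and the aminopeptidase ERAP2 (0.25). The call of ERAP2 was lost under 8 of 11 alternatives, among them DESeq2 (adjusted p = 0.0724). CANX, PDIA3, TAPBPL, ERAP1, HSPA5 and LNPEP were not called, although with scaling by total counts alone PDIA3 and HSPA5 were called lower. Of the PA28 proteasome activators, PSME3 was higher (0.46), while the interferon-inducible PSME1 (-0.11) and PSME2 (0.05) were not called, although PSME1 was called lower with total counts alone (adjusted p = 0.0269 by edgeR).

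Of 15 transcription regulators of class I genes, 6 were higher and 3 lower (median log2 fold change 0.12). NLRC5, the coactivator of class I promoters, was at 15.9, 15.1 and 14.9 RPM in shLuc and at 13.5, 12.5 and 11.7 RPM in shWDR5. The groups did not overlap and NLRC5 was lower (log2 fold change -0.28 ± 0.07 SE, adjusted p = 0.00892 by edgeR). IRF1, which binds ISRE-like elements, was at 19.0, 17.3 and 18.0 RPM in shLuc and at 27.3, 24.1 and 24.2 RPM in shWDR5 and was higher (log2 fold change 0.48 ± 0.07 SE, adjusted p = 0.000337 by edgeR). The NF-kB subunits RELA (0.48) and NFKB1 (0.54), the NF-Y subunits NFYA (0.49) and NFYC (0.31) and the RFX subunit RFX5 (0.25) were higher on the log2 scale as well. RFXAP (-0.31) and IRF9 (-0.19) were lower, and both lost their call with DESeq2 (adjusted p of 0.117 and 0.130). Of the 11 alternatives, 6 removed the call of RFXAP and 8 that of IRF9. STAT2 (-0.13), IRF2, RFXANK, NFYB and CREB1 were among those not called. STAT2 was called lower with total counts alone (adjusted p = 0.0115 by edgeR) and without shLuc replicate 3 (0.0447), and CREB1 was called lower without shLuc replicate 1 (0.0456).

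Among the interferon receptors and their kinases, 4 of 7 were higher and 2 lower (median log2 fold change 0.23). IFNGR2 (0.23), IFNAR2 (0.37), JAK2 (0.51) and TYK2 (0.41) were higher, and IFNAR1 (-0.50) and JAK1 (-0.21) were lower. IFNGR1 was not called, at 0.20 (adjusted p = 0.0694 by edgeR), but passed the threshold with DESeq2 (adjusted p = 0.0377).

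The MHC class II genes, which present peptides from outside the cell and neighbour the TAP genes, were mostly near zero: 6 of 12 could be tested, and HLA-DRA and HLA-DPA1 stayed under 0.1 RPM in every library. CD74, the invariant chain, was higher (log2 fold change 0.49), as was HLA-DQB1 (1.25), from a mean of 2.38 to 5.66 RPM. HLA-DMA (-1.02) and HLA-DOB (-1.35), which encode chains of the class II peptide editor and of its inhibitor, were lower. CIITA, the class II coactivator, had a mean of 0.416 RPM in shLuc and 0.318 RPM in shWDR5 and was not called, nor was HLA-DOA.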

How the data were processed

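The authors deposited raw read counts per gene in one table, with 1 column for each of the 3 shLuc and 3 shWDR5 libraries and with hg19 exon coordinates and summed exon length per gene. Per the labels, poly-A mRNA was sequenced on an Illumina HiSeq from TruSeq libraries, and the submitters' processing notes name TopHat2 2.1.0, featureCounts, edgeR 3.2.2 and the builds hg19 and GRCh37. The strand setting and the handling of reads with several matches are not given in the sources used here. A second deposited file, of the authors' own fold changes and p-values, was not used. Groups were taken from the sample titles.

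Counts were filtered with filterByExpr (minimum count 10), scaled by trimmed-mean (TMM) factors and tested across all 16117 remaining genes with the quasi-likelihood test of edgeR 4.0.16 in R 4.3.3, without a replicate block, with Benjamini-Hochberg adjustment. SEs come from log2 RPM (reads per 1000000 counted reads) with a prior count of 2. The study's thresholds were applied as a second call rule. Ratios of subunits were tested with an exact permutation test in scipy 1.17.1. Motifs were searched in RefSeq windows of GRCh38.p14, whose coordinates were kept apart from those of hg19. Totals of 38218108 to 57640167 reads gave a common biological coefficient of variation of 0.0723. The fit was tested on simulated data before use. Alternatives were size factors of DESeq2 (RLE), total counts, DESeq2 1.42.0, no filter, a replicate block and leaving out each library. No 2 libraries of the same group agreed within sampling noise, and the labels give no batch. All members were named, as was every called gene of the other lists, except that some genes counted in the lists are not reported here by name. The members, lists and markers were chosen with earlier results of these data known.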

Additional observations from a re-analysis of the deposited data

How the results depend on the processing

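All 9 members kept their side of the adjusted p threshold under all 11 alternatives, with 4 higher and 3 lower each time. The direction changed only for B2M, which was not called. Across the alternatives the log2 fold changes were 0.30 to 0.43 for HLA-B, 0.31 to 0.43 for HLA-C, 0.02 to 0.10 for HLA-E, 0.22 to 0.31 for TAP1, -0.43 to -0.33 for TAP2, 0.57 to 0.65 for TAPBP, -0.59 to -0.47 for PSMB8 and -1.79 to -1.61 for PSMB9. Under the study's thresholds, TAPBP as the 1 higher member was lost with total counts only, which left 0, and leaving out 1 library each left 0 to 1. Scaling by total counts moved the median of all genes by -0.06 on the log2 scale. Of the 649 fold changes of the 59 other pathway genes over the 11 alternatives, 596 kept direction and side of the threshold, 35 lost a call, 18 gained one and 0 reversed. All genes called numbered 3705 to 4901 higher and 4271 to 5511 lower. The subunit ratios kept their direction, and p could not fall below 0.1 there.

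Whether same-numbered libraries were paired is not given by the labels, and the deviations from the group means did not settle it. Between same-numbered libraries these deviations correlated at 0.372, 0.036 and 0.116. The highest value was that of replicate 1, and each replicate 1 correlated negatively with the other-numbered libraries of the other group (-0.312 to -0.099). Deviations from a group mean cancel within the group, so these negative values largely follow from the 0.372 and add little on pairing. Replicate 2 of shLuc correlated better with replicate 3 of shWDR5 (0.210) than with its replicate 2. With the replicate block, 4901 genes were higher and 5511 lower, against 4291 and 4821 without it, WDR5 was at -1.15, 4 members were higher and 3 lower, and 23 other pathway genes were higher and 20 lower. PSME1, PSMB7, STAT2, IRF2, CREB1 and IFNGR1 were among the genes called with the block and not without it. The ISRE and NF-kB motifs were first searched with the longer letters and then with the shorter letters reported here, which match more windows. The comparison of the longer with the shorter letters was added after seeing the data.

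Levels of HLA-B and HLA-C can be affected by shared reads, which was not tested, and PSMB9, with 96 to 451 reads, is the member with the fewest counts.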
